A study of Eulimnogammarus verrucosus and Eulimnogammarus cyaneus and Gammarus lacustris with 24 samples.

Results

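Alpha, beta and gamma tubulins are described here in 3 amphipod crustaceans after a month in cold or warm water. Members are the entries of the authors' deposited tables whose gene symbol is a tubulin name of the alpha, beta or gamma kind, compared in full and ignoring case. This gave 26 of 12688 entries, 6 of 5094 in Gammarus lacustris and 10 each in Eulimnogammarus verrucosus (of 3920) and Eulimnogammarus cyaneus (of 3674). By kind there were 11 alpha, 13 beta and 2 gamma names. The alpha-tubulin-like name TUBAL3, listed in E. cyaneus, was outside the patterns used and is not counted. The same symbol in another species, or in another letter case within a species, is a separate entry. The choice used symbols only and no measured value, though it was made with earlier results of these data known.

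Both Eulimnogammarus species are endemic to Lake Baikal and G. lacustris is Holarctic, and all were taken as wild adults from the shore at Bolshie Koty. Animals of every group spent 14 days at 6 °C, were brought gradually over about 6 days to 1.5 or 12 °C, and stayed there for 1 month. Each of the 6 groups has 4 libraries of whole-body mRNA, each from pooled animals, about 11 for G. lacustris, about 13 for E. cyaneus and 3 for E. verrucosus. A p-value therefore measures the spread between pools, and fewer cells of a type cannot be told apart from less RNA per cell. Library totals ran from 8501814 to 15417652 estimated counts. Library 1 at 12 °C of E. cyaneus stood apart on the first principal component, and its 10 most abundant transcripts held 25.5% of its counts against 11.4 to 17.8% in the other 7. Library 1 at 12 °C of G. lacustris was the farthest of its warm libraries from the cold ones, so results of both species are also given without these libraries.

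Microtubules are hollow polymers of alpha-beta tubulin dimers. They carry vesicles and organelles, build the spindle of dividing cells and form the core of cilia and sperm tails. Gamma tubulin sits in a ring complex that starts new microtubules. In many animals microtubules fall apart when chilled, and tubulins of cold-living animals are known for assembling at low temperature. Animals carry several genes, called isotypes, for both alpha and beta tubulin, and their coding sequences are very alike, so that a short read can match several copies. The symbols are those of other animals. In Drosophila melanogaster betaTub56D is the beta tubulin used in most tissues and betaTub85D that of the testis. In vertebrates TUBB3 is a mark of neurons, TUBB4A is known from brain, TUBB4B from ciliated cells and TUBA8 from muscle and testis, while in Caenorhabditis elegans tbb-4 is used by ciliated neurons.

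The deposited tables name genes and the count files name assembled transcripts, and a name was joined to transcripts where their mean normalised count was the same. This placed 19 of the 26 names on 27 transcripts. One further name, betaTub85D of E. verrucosus, fitted 19 transcripts that all hold the same 2 reads in library 2 at 1.5 °C and none elsewhere. The remaining 6 names (betaTub56D and TUBA3E of E. verrucosus, tbb-4, TUBA3C and TUBG2 of E. cyaneus, and TUBG2 of G. lacustris) were joined to no transcript and have values only in the authors' deposited table. As a check, the log2 ratio of the normalised group means of the 15 joined names with at least 50 reads lay within 0.21 of the fold change in the authors' deposited table. For TUBA1C of E. verrucosus and betaTub56D, TUBA1C, TUBA3D and TUBB of E. cyaneus this is no separate check. The search for their summed transcripts had used that fold change to narrow the candidates. The other names were joined by the mean alone. The joined transcripts are between 202 and 2009 bases long, most of them shorter than a full tubulin message.

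Every fold change below is log2 of 1.5 over 12 °C, so that a negative value is lower in the cold. Levels in CPM are counts scaled to library size with TMM factors, which line libraries up on their typical transcript. They are given as mean ± SD over 4 pools. Called means an adjusted p under 0.05, from edgeR's quasi-likelihood test over all transcripts of a species unless the authors' deposited table is named.

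Tubulin changes were few in the Baikal species and more frequent in G. lacustris, where changes were frequent over all transcripts as well. In E. verrucosus 0 of 4 tested tubulin transcripts were called by edgeR, where 3.34% of all transcripts were called, 2.02% lower and 1.32% higher. Of the 4, 0 had an unadjusted p under 0.05. DESeq2, which called 5.9% of its transcripts there, called the low-count TUBB4A that edgeR's filter had removed. In E. cyaneus 1 of 6 was called, lower in the cold, beside 0.314% of all transcripts called lower, 0.314% called higher and 0.629% in either direction. In G. lacustris 3 of 4 were called, all lower in the cold, beside 30.1% of all transcripts called lower, 9.7% higher and 39.8% in either direction. The 4 tested in G. lacustris belong to 3 names, since 2 of those called are transcripts of tubb4b. The median fold change of the tested tubulin transcripts was −2.18 in G. lacustris beside 0.11 for all transcripts, −0.48 in E. cyaneus beside 0.01, and −0.0042 in E. verrucosus beside −0.03. Joined transcripts too low in counts to be tested numbered 3 in G. lacustris, 6 in E. cyaneus and 4 in E. verrucosus.

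By name, the authors' deposited table of E. verrucosus called 1 of 8 tubulins with an adjusted p, higher in the cold, beside 2.7% of all names called higher, 1.99% lower and 4.69% in either direction. That of E. cyaneus called 2 of 8, both lower, beside 4.03% of all names lower, 2.24% higher and 6.27% in either direction in the authors' deposited table. For G. lacustris the authors' deposited table called 3 of 6, 2 lower beside 33.8% of all names and 1 higher beside 25.1%, with 58.9% called in either direction.

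**Figure D1:**
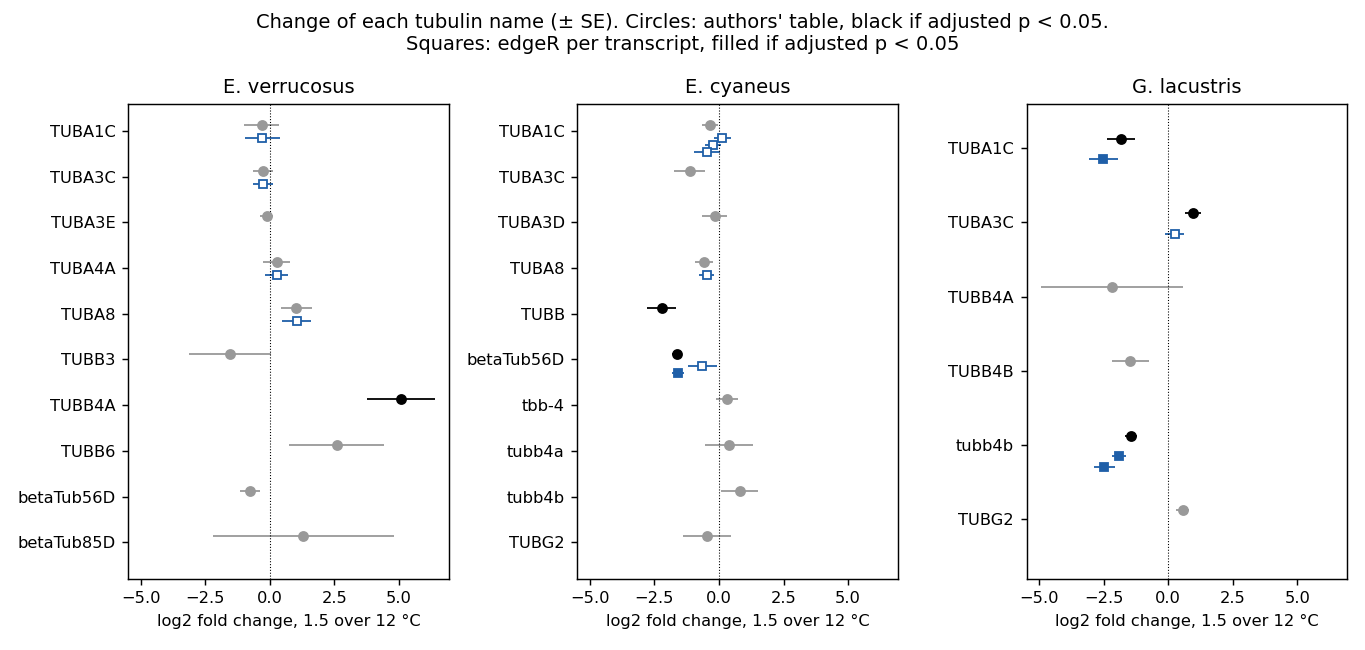
Log2 fold change of each of the 26 tubulin names (x axis, 1.5 over 12 °C, ± SE), by species. Circles are the authors' deposited values, black where their adjusted p is under 0.05, and squares are edgeR values per tested transcript, filled where called. The called values lie to the left of 0 except TUBB4A of E. verrucosus at 5.08 and TUBA3C of G. lacustris at 0.98, both in the authors' deposited table.

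Among the alpha tubulins, TUBA3C had the highest mean TPM, a level per length, of the joined tubulins in both species where it was joined. In E. verrucosus its 444-base transcript read 272, 114, 97.2 and 120 CPM in libraries 1 to 4 at 12 °C and 104, 156, 134 and 107 CPM at 1.5 °C. The groups overlap, and library 1 at 12 °C stands well above the other 7. The fold change was −0.27 (SE 0.37, edgeR adjusted p = 0.893), and without that library it was 0.18 (adjusted p = 0.821).

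In G. lacustris the 2009-base TUBA3C transcript, long enough to span a whole tubulin message, read 574, 313, 156 and 200 CPM at 12 °C and 332, 387, 418 and 351 CPM at 1.5 °C. The warm libraries spread widely and the cold ones lie together within that range. Its mean was 311 ± 187 CPM at 12 °C and 372 ± 38.3 CPM at 1.5 °C, a difference of 0.26 in log2 (SE 0.36, edgeR adjusted p = 0.61). The authors' deposited table lists it as called, at 0.98 (SE 0.31, adjusted p = 0.00413). Without library 1 at 12 °C edgeR also called it higher, at 0.77 (SE 0.25, adjusted p = 0.0335).

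TUBA1C was joined in all 3 species and was called in G. lacustris. There its 213-base transcript read 8.07, 2.44, 3.17 and 2.86 CPM at 12 °C and 0.38, 1.2, 0.813 and 0.467 CPM at 1.5 °C. Every cold library lies below every warm one, as did 29.7% of all transcripts tested in that species. It fell from 4.13 ± 2.64 to 0.716 ± 0.376 CPM, by −2.51 in log2 (SE 0.55, edgeR adjusted p = 0.00339). Without the high library 1 at 12 °C the value was −1.95 (adjusted p = 0.00562).

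In E. verrucosus nearly all TUBA1C reads (99.6%) lie on a 274-base transcript. The name read 3.4, 6.57, 25.5 and 7.68 CPM at 12 °C and 7.78, 3.91, 6.46 and 17.5 CPM at 1.5 °C. The groups overlap throughout, and the 274-base transcript had a fold change of −0.29 (SE 0.68, edgeR adjusted p = 0.946). In E. cyaneus TUBA1C rests on 3 transcripts whose sum went from 27.9 ± 13 to 22.5 ± 4.33 CPM, and their fold changes were 0.13, −0.25 and −0.47 with edgeR adjusted p from 0.705 to 0.887.

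TUBA8 read 0.785, 1.31, 2.85 and 0.92 CPM at 12 °C in E. verrucosus and 2.84, 4.94, 3.13 and 1.12 CPM at 1.5 °C. In all, 3 of the 4 cold libraries are near or above the highest warm one and library 4 is not, and the fold change of 1.04 (SE 0.56) had an edgeR adjusted p of 0.566. In E. cyaneus TUBA8 went from 9.33 ± 2.59 to 6.7 ± 2.11 CPM (−0.48, SE 0.30, edgeR adjusted p = 0.484).

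The other alpha names were TUBA4A and TUBA3E of E. verrucosus and TUBA3D and TUBA3C of E. cyaneus. TUBA4A went from 1.48 ± 0.803 to 1.79 ± 0.633 CPM (0.26, SE 0.45, edgeR adjusted p = 0.921). TUBA3D of E. cyaneus, below the filter on low counts, holds 47 reads at 12 °C and 55 at 1.5 °C. TUBA3E has, in the authors' deposited table, a mean normalised count of 414 and a fold change of −0.13 (SE 0.25, adjusted p = 0.921). TUBA3C of E. cyaneus has, in the authors' deposited table, a mean of 12.4 and a fold change of −1.14 (SE 0.61, adjusted p = 0.317).

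Among the beta tubulins, betaTub56D is named in both Baikal species and is not among the names of the G. lacustris table. In E. cyaneus it rests on a 917-base and a 577-base transcript, and the longer one holds 97.6% of its reads. That transcript read 54.9, 85.5, 67.3 and 74.1 CPM at 12 °C and 19.4, 20.8, 24.4 and 28.7 CPM at 1.5 °C. All 4 cold libraries lie below all 4 warm ones, as did 4.37% of transcripts tested in E. cyaneus.

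The 917-base transcript of betaTub56D fell from 70.4 ± 12.8 to 23.3 ± 4.17 CPM, by −1.59 in log2 (SE 0.22, edgeR adjusted p = 0.0149). The 577-base transcript went from 1.35 ± 0.802 to 0.878 ± 0.454 CPM, and its fold change of −0.64 (SE 0.56) had an edgeR adjusted p of 0.631. The authors' deposited table gives betaTub56D of E. cyaneus −1.63 (SE 0.18, adjusted p = 3.34e-17). Without library 1 at 12 °C the 917-base transcript had −1.71 (edgeR adjusted p = 0.0137). Leaving out 1 library at a time, the 917-base transcript stayed between −1.73 and −1.49 and was called in 3 of 8 fits, with edgeR adjusted p from 0.0137 to 0.0636. The 5 fits without its call leave out libraries 2 or 3 at 12 °C, or 1, 2 or 3 at 1.5 °C, with adjusted p of 0.0514, 0.054, 0.0537, 0.0629 and 0.0636 in that order.

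In E. verrucosus betaTub56D was joined to no transcript, so that no value per library is given. The authors' deposited table lists it with a mean normalised count of 4975 and a fold change of −0.77 (SE 0.40, unadjusted p = 0.0528, adjusted p = 0.363). Whether its change differs from that in E. cyaneus was not tested, because the test between species needs joined transcripts in both.

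**Figure D2:**
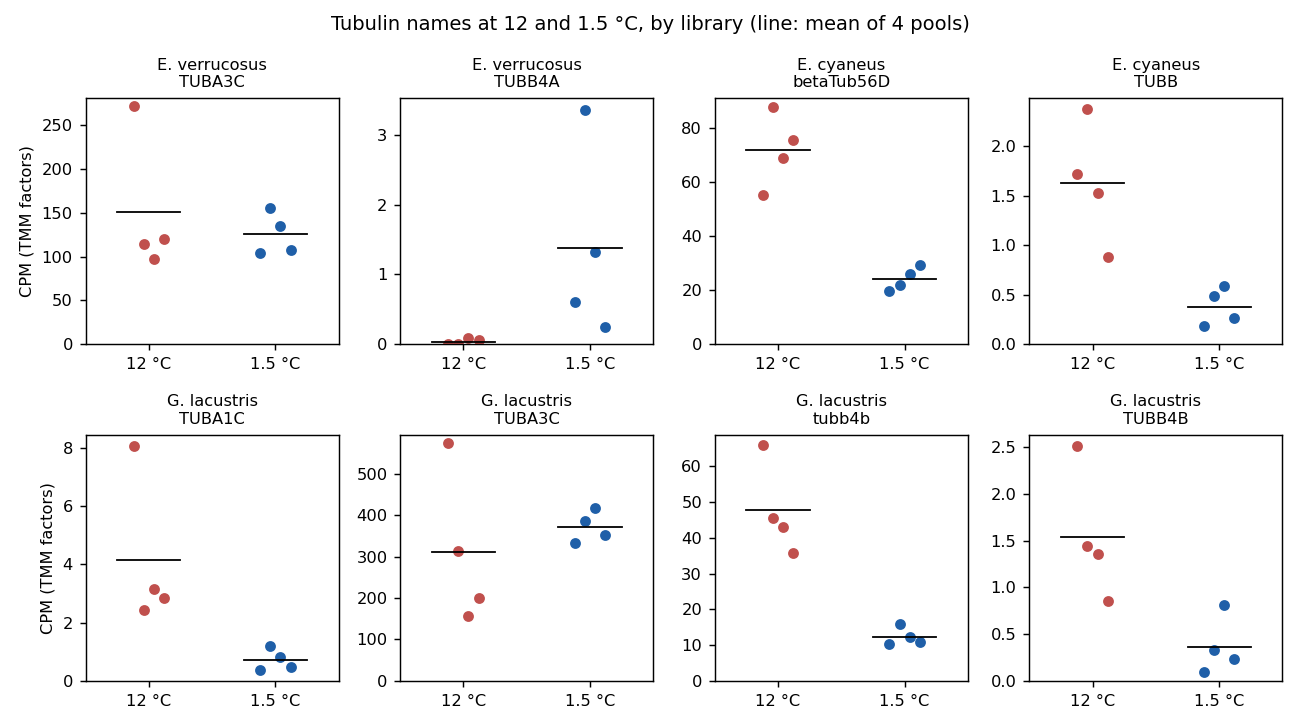
CPM of 8 tubulin names (y axis, linear from 0) in each library at 12 °C (red) and 1.5 °C (blue), with a line at the mean of 4 pools. betaTub56D and TUBB of E. cyaneus and TUBA1C, tubb4b and TUBB4B of G. lacustris lie lower in every cold library than in every warm one, TUBB4A of E. verrucosus lies higher, and TUBA3C overlaps in both species.

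The beta tubulin called in G. lacustris was tubb4b, on 2 transcripts of 682 and 254 bases. Summed over both, the name read 66, 45.6, 43.1 and 35.9 CPM at 12 °C and 10.3, 15.8, 12.2 and 10.7 CPM at 1.5 °C. The lowest warm library is above the highest cold one by more than the SD of either group. Every cold library was below every warm one in 29.7% of all transcripts tested in that species. The longer transcript fell from 41.2 ± 10.6 to 11.1 ± 2.43 CPM, by −1.89 in log2 (SE 0.27, edgeR adjusted p = 0.000468). The shorter one fell from 6.45 ± 2.48 to 1.15 ± 0.325 CPM (−2.47, SE 0.41, edgeR adjusted p = 0.000785).

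Both tubb4b calls were kept whichever 1 of the 8 libraries was left out. Without library 1 at 12 °C the values were −1.68 (edgeR adjusted p = 0.000604) for the longer and −2.19 (edgeR adjusted p = 0.00119) for the shorter. The authors' deposited table gives tubb4b of G. lacustris −1.43 (SE 0.24, adjusted p = 2.85e-08). A second entry, spelled TUBB4B, holds 66 reads in all. It read 2.51, 1.44, 1.36 and 0.858 CPM at 12 °C and 0.0949, 0.329, 0.813 and 0.233 CPM at 1.5 °C, so the groups do not overlap in CPM, although the lowest warm library is only just above the highest cold one. In TPM its groups overlap, with 4.66 TPM in the lowest warm library and 4.81 TPM in the highest cold one. It was below the filter on low counts, and the authors' deposited table gives it −1.46 (SE 0.71, adjusted p = 0.065). Its 270-base transcript was called lower by DESeq2, at −1.99 (SE 0.79, adjusted p = 0.0363), and by edgeR with no filter, at −1.76 (SE 0.65, adjusted p = 0.0498).

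In E. cyaneus tubb4b holds 51 reads, with no read in library 1 at 12 °C. It read 0, 0.297, 0.537 and 0.562 CPM at 12 °C and 0.553, 0.488, 1.09 and 0.529 CPM at 1.5 °C, groups that overlap. It has, in the authors' deposited table, a fold change of 0.80 (SE 0.72, adjusted p = 0.627).

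TUBB of E. cyaneus rests on 2 short transcripts of 439 and 242 bases with 85 reads in all. The sum read 1.72, 2.37, 1.52 and 0.884 CPM at 12 °C and 0.184, 0.488, 0.583 and 0.265 CPM at 1.5 °C. All cold libraries lie below all warm ones, as did 4.37% of tested transcripts. The authors' deposited table calls it lower at −2.22 (SE 0.55, adjusted p = 0.00234), while edgeR on the summed counts gave −2.04 (SE 0.47, adjusted p = 0.0892) and did not call it.

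TUBB4A of E. verrucosus, a 227-base transcript, is the tubulin that was called higher in the authors' deposited table of that species, at 5.08 (SE 1.30, adjusted p = 0.00473). It holds 0, 0, 1 and 1 reads at 12 °C and 12, 49, 21 and 2 reads at 1.5 °C. Each cold library is above each warm one (9.16% of tested transcripts of that species had groups that did not overlap, in either direction), but the highest cold library has many times the reads of the lowest. The group totals of 2 and 84 reads, scaled to library size, give a ratio of 35.4 (exact 95% interval 9.51 to 297, which covers counting error only). edgeR's filter on low counts removed it. With no filter edgeR gave 4.85 (SE 1.12, adjusted p = 0.0505), and DESeq2 gave 5.13 (SE 1.34, adjusted p = 0.00403). Leaving out library 4 at 1.5 °C brought it past edgeR's filter and threshold, at 5.18 (adjusted p = 0.0227). Leaving out any 1 of the 12 °C libraries also brought it past the filter, but it was not called there (4.55 to 5.35, edgeR adjusted p from 0.103 to 0.141).

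The other beta names, tbb-4 apart, rested on very few reads. In E. verrucosus TUBB6 holds 2 reads at 12 °C and 14 at 1.5 °C, a ratio of 5.9 (exact 95% interval 1.36 to 53.5, counting error only). TUBB3 of E. verrucosus holds 8 and 4 reads, and tubb4a of E. cyaneus 10 and 17. TUBB4A of G. lacustris has 5 reads at 12 °C, in libraries 1 and 3, and 0 at 1.5 °C, too few for a fold. The worm-named tbb-4 of E. cyaneus has, in the authors' deposited table, a mean of 35.2 and a fold change of 0.30 (SE 0.42, adjusted p = 0.776).

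Gamma tubulin was listed as TUBG2 in E. cyaneus and G. lacustris, and neither entry was joined to transcripts. That of G. lacustris has, in the authors' deposited table, a mean normalised count of 169 and a fold change of 0.56 (SE 0.27, adjusted p = 0.0601). That of E. cyaneus has, in the authors' deposited table, a mean of 3.62, a fold change of −0.47 (SE 0.93) and no adjusted p.

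Levels can be compared between names only per length, for which the deposited TPM of the joined names was used. In E. verrucosus TUBA3C led with 423 ± 147 TPM at 12 °C and 456 ± 147 TPM at 1.5 °C. TUBA1C followed with 71.1 ± 64.5 and 61.6 ± 23.4 TPM, and its highest library, at 163 TPM, lies below the lowest of TUBA3C at 247 TPM. TUBA8, TUBA4A, TUBB4A, TUBB6 and TUBB3 had group means between 0.223 and 18.6 TPM. At 1.5 °C TUBA8 (18.6 ± 10.4 TPM) and TUBB4A (15.6 ± 15.3 TPM) did not differ beyond their spread.

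In E. cyaneus betaTub56D had 80.7 ± 26.9 TPM at 12 °C and TUBA1C 47.2 ± 16.7 TPM, with overlapping libraries. At 1.5 °C their order was turned, with 32 ± 6.74 TPM for betaTub56D and 49 ± 11.9 TPM for TUBA1C, again with overlap. TUBA8, TUBA3D and TUBB formed the next group at 12 °C, with means from 6.22 to 10.7 TPM and overlapping libraries. In G. lacustris TUBA3C (115 ± 61 TPM) and tubb4b (92.2 ± 21.5 TPM) overlapped at 12 °C. At 1.5 °C they were apart, at 142 ± 15.5 and 21.4 ± 3.81 TPM. Unjoined names are missing from these orders, betaTub56D of E. verrucosus among them.

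**Figure D3:**
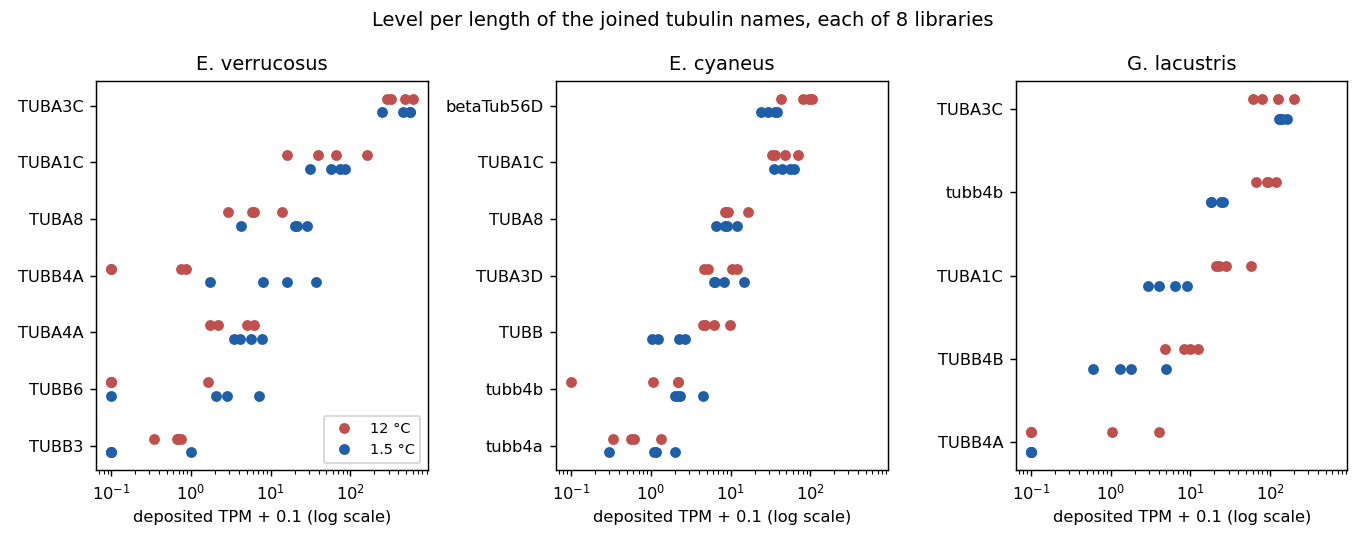
Level per length of the 19 joined tubulin names by species, as deposited TPM with 0.1 added so that zeros can be drawn (x axis, log scale). Each point is 1 library, red at 12 °C and blue at 1.5 °C. TUBA3C leads in E. verrucosus and G. lacustris, betaTub56D and TUBA1C lie together in E. cyaneus, and tubb4b of G. lacustris drops from a mean of 92.2 to 21.4 TPM.

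Several of these names are not separate in the assembly, where reads of near-identical copies can be divided among transcripts. In E. cyaneus the TUBA8 transcript and 2 of the 3 TUBA1C transcripts are isoforms of 1 assembled gene, which also holds the transcripts of the alpha-tubulin-like name TUBAL3. That assembled gene, with 6 transcripts, went from 42.2 ± 18.2 to 30.5 ± 6.14 CPM in sum and its groups overlap. In G. lacustris the transcripts of tubb4b and of TUBB4B come from 1 assembly cluster, so that their values are not independent of each other.

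Some assembled genes also hold far more reads than the transcript with the tubulin name. The one with TUBA3C of E. verrucosus has 5 transcripts, and their sum was 573 ± 231 CPM at 12 °C and 572 ± 180 CPM at 1.5 °C. The one with the 1023-base TUBA1C transcript of E. cyaneus has 3 transcripts that sum to 738, 470.3, 224 and 119 CPM at 12 °C and to 93.4, 125, 186 and 174 CPM at 1.5 °C, and library 1 at 12 °C is the highest. The one with the 917-base betaTub56D transcript has 2, and their sum went from 72.8 ± 11.9 to 26.2 ± 3.05 CPM without overlap, like the named transcript. No test was made on these sums.

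The scaling of libraries moved the values of G. lacustris. With the size factors recovered from the authors' deposited means in place of TMM, fold changes of G. lacustris shifted by 0.65 (median over transcripts), while those of E. cyaneus shifted by −0.11 and those of E. verrucosus by −0.03. Under those factors 10447 of 17609 called transcripts of G. lacustris were higher in the cold, against 2639 of 10824 with TMM. The falls of TUBA1C (−1.78, edgeR adjusted p = 0.00981) and of the 682-base and 254-base tubb4b transcripts (−1.20, adjusted p = 0.0031, and −1.77, adjusted p = 0.00261) were kept. TUBA3C, at 0.98 (SE 0.32, edgeR adjusted p = 0.0205), was called higher under those factors and was not called under TMM, RLE or DESeq2 scaling. Its value lies close to the median of all transcripts under the same factors, 0.78, as its TMM value of 0.26 does to 0.11.

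**Figure D4:**
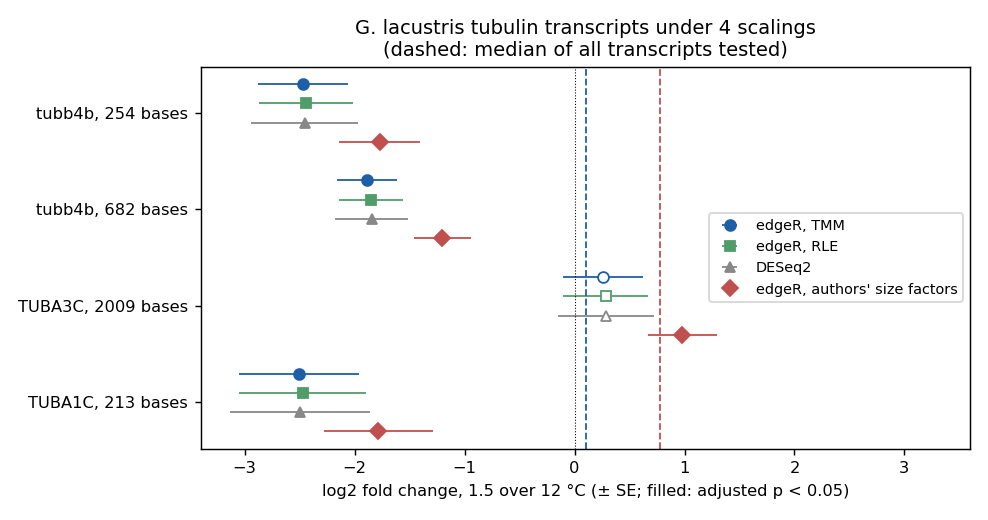
Log2 fold change (x axis, ± SE) of the 4 tested tubulin transcripts of G. lacustris under 4 scalings, with filled symbols where the adjusted p is under 0.05. Dashed lines mark the median of all transcripts, 0.11 with TMM and 0.78 with the authors' size factors. TUBA1C and both tubb4b transcripts stay below 0 and called, and TUBA3C changes its call.

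The change between temperatures was compared between species on names joined in both, with edgeR's interaction term. A shared name does not show that the gene is the same in both species. The change of TUBA1C differed between E. cyaneus and G. lacustris by 2.29 (SE 0.58, edgeR adjusted p = 0.0027), E. cyaneus being the less lowered, and that of tubb4b by 2.84 (SE 0.57, edgeR adjusted p = 0.000455). In this pair of species 43.7% of 723 shared names were called. Leaving out any 1 of the 16 libraries kept both calls, with differences from 1.82 to 2.64 for TUBA1C and from 2.53 to 3.17 for tubb4b. tubb4b of E. cyaneus brings only 51 reads to that comparison. That of TUBA1C sets a 213-base transcript with 167 reads in G. lacustris against the sum of 3 transcripts in E. cyaneus.

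TUBA1C differed by 2.18 (SE 0.92, edgeR adjusted p = 0.0651) between E. verrucosus and G. lacustris, where 40.5% of 778 names were called. It was called with the library sizes of the fits over all transcripts, at 2.21 (edgeR adjusted p = 0.0484), and in 4 of 16 fits that each left out a library, which ranged from 1.58 to 3.25 (edgeR adjusted p from 0.00266 to 0.179). Those 4 were the fits without library 3 at 12 °C (3.25, adjusted p = 0.00266) or library 2 at 1.5 °C (2.39, adjusted p = 0.0479) of E. verrucosus, or without library 2 at 12 °C (2.42, adjusted p = 0.0498) or library 2 at 1.5 °C (2.58, adjusted p = 0.0473) of G. lacustris. It differed by −0.14 (SE 0.74, edgeR adjusted p = 0.959) between the Baikal species, where 1.46% of 686 names were called. TUBA8 differed by 1.43 (SE 0.61, edgeR adjusted p = 0.281) between E. verrucosus and E. cyaneus. TUBA3C differed by −0.33 (SE 0.57, edgeR adjusted p = 0.691) between E. verrucosus and G. lacustris.

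Markers of some other cell types moved in the same libraries as the tubulins of G. lacustris and E. cyaneus. In G. lacustris 44 names of the cilia and sperm axoneme list were present, dynein arms and intraflagellar transport among them. Of these 24 were joined, and 9 of 9 tested transcripts fell, beside 30.1% of all transcripts called lower. Of 43 names with an adjusted p, 29 are lower and 2 higher in the authors' deposited table, beside 33.8% and 25.1% of all names. Their summed level ran from 76.5 to 162 CPM at 12 °C and from 12.8 to 15.7 CPM at 1.5 °C, and CFAP46, dnah10 and dnah5 have a deposited mean under 1. Library 1 at 12 °C is the highest for this sum and for TUBA1C, tubb4b and TUBB4B. It is also the highest for TUBA3C, which edgeR did not call. Muscle markers of G. lacustris (7 of 12 names joined) ran from 5319 to 6435 CPM at 12 °C and from 4026 to 5722 CPM at 1.5 °C, with 3 of 6 tested transcripts lower. Dividing-cell markers there, 5 of 8 joined, summed to 154 to 221 CPM at 12 °C and 126 to 183 CPM at 1.5 °C, which overlap, and 3 of 4 tested transcripts fell. The authors' deposited table has 3 of the 7 with an adjusted p lower and 1 higher. Nervous system markers there, 3 of 6 joined, summed to 1.59 to 3.66 CPM at 12 °C and 1.42 to 2.1 CPM at 1.5 °C, which overlap. edgeR called 0 of their 1 tested transcripts. Of the 6 with an adjusted p, the authors' deposited table has 0 lower and 1 higher. The lists name cell types of other animals. Whether cilia or axonemes of these amphipods are the source of the axoneme transcripts was not tested. The part of these cell types in the tubulin values was not tested.

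In E. cyaneus, where betaTub56D fell, 6 of 11 muscle names were joined and summed to between 11743 and 30768 CPM at 12 °C and 6303 and 10169 CPM at 1.5 °C. edgeR called 0 of their 7 tested transcripts, 5 of which had an unadjusted p under 0.05, and their median fold change was −1.25. Over all transcripts of the species 2936 of 20678 had such an unadjusted p. The authors' deposited table calls 5 of the 7 names with an adjusted p, all lower, beside 4.03% of all names lower and 2.24% higher. Among the 11 muscle names bt, MYH15 and MYH3 have a deposited mean under 1. All 4 names of the nervous system list present there, GABRB2, GLRA3, OPN4 and para, were joined. They summed to between 830 and 1129 CPM at 12 °C and 327 and 521 CPM at 1.5 °C, with para under 1 in deposited mean. That sum rests on these 4 names alone, and whether it follows the amount of nervous tissue was not tested. Of their 3 tested transcripts 1 was called lower, beside 0.314% of all transcripts. The authors' deposited table has 3 of the 3 names with an adjusted p lower. Cilia and axoneme markers of E. cyaneus, 19 of 30 joined, ran from 38.2 to 46 CPM at 12 °C and from 19.8 to 35.6 CPM at 1.5 °C, with 0 of 6 tested transcripts called and 1 with an unadjusted p under 0.05. The yolk protein precursor Vg ran from 105 to 424 CPM at 12 °C and from 953 to 1796 CPM at 1.5 °C. Dividing-cell markers, 4 of 8 joined, ran from 46.1 to 52.4 CPM at 12 °C and from 60.6 to 92.5 CPM at 1.5 °C. edgeR called 0 of their 2 tested transcripts, both with an unadjusted p under 0.05. The authors' deposited table calls 1 of 5 of these names higher, beside 2.24% of all names. The part of these cell types in the fall of betaTub56D was not tested. In E. verrucosus the authors' deposited table calls 2 of 10 axoneme names higher and 0 lower, beside 2.7% and 1.99% of all names. Of muscle names it calls 1 of 12 lower there, of nervous system names 1 of 4 lower and of dividing-cell names 0 of 7. edgeR called 1 of 3 axoneme transcripts higher there, beside 1.32% of all. It called 0 of 9 muscle, 0 of 2 nervous system and 0 of 5 dividing-cell transcripts.

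**Figure D5:**
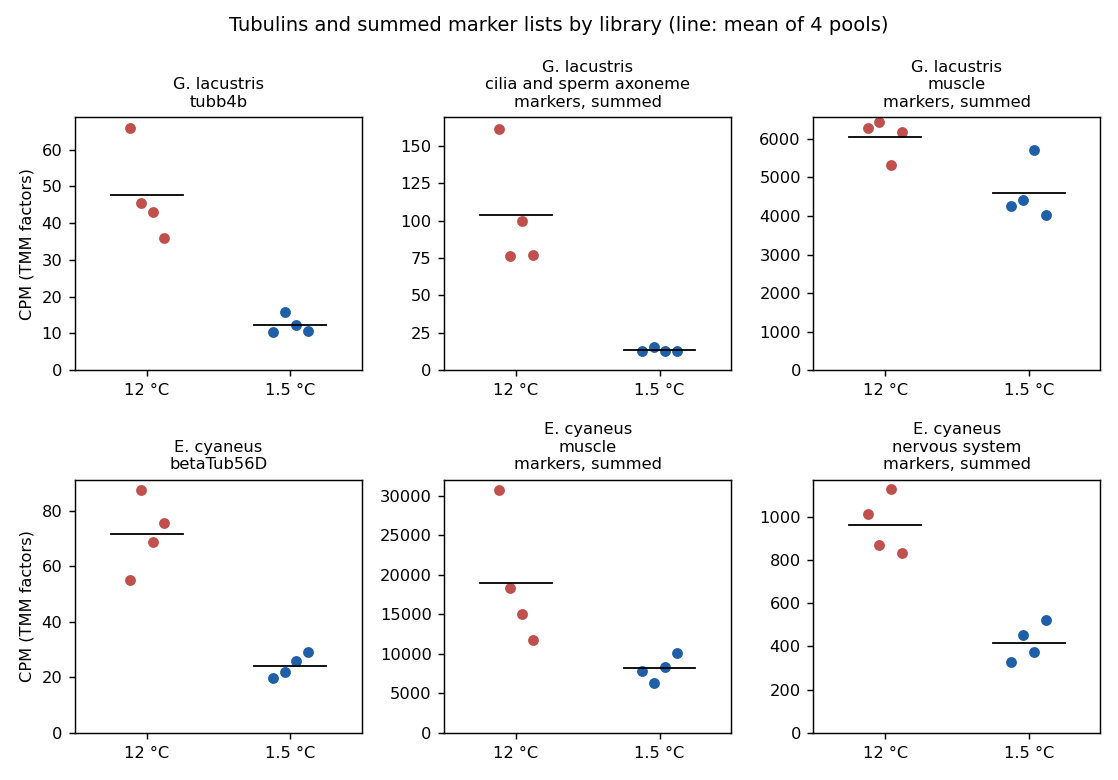
CPM by library (y axis, linear from 0) of tubb4b and of the summed axoneme and muscle markers in G. lacustris, and of betaTub56D and the summed muscle and nervous system markers in E. cyaneus. Red is 12 °C, blue is 1.5 °C and lines are means of 4 pools. Axoneme markers of G. lacustris lie at 12.8 to 15.7 CPM in the cold, below all warm libraries, and muscle markers there overlap between 5319 and 5722 CPM.

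Proteins that fold tubulin moved in both directions. The chaperonin ring, made of the CCT subunits, folds new actin and tubulin, prefoldin hands chains to it, and the cofactors TBCA to TBCE assemble the dimer. For E. verrucosus the authors' deposited table has, of 17 names, 13 with an adjusted p, 4 of them higher in the cold and 0 lower, beside 2.7% and 1.99% of all names. The 17 had a median fold change of 1.06 beside 0.06 over all names. They include names with very few reads, such as CCT8 (deposited mean 0.322, SE 3.48) and PFDN2 (deposited mean 0.844, SE 1.99). As the authors' deposited table gives them, the 4 called were CCT6A at 1.47 (SE 0.22, adjusted p = 1.11e-08), CCT8L2 at 1.06 (SE 0.23), CCT2 at 0.90 (SE 0.21) and cct7 at 0.87 (SE 0.27). For E. cyaneus the authors' deposited table has cct7 higher at 0.73 (SE 0.15, adjusted p = 0.000144), and PDCL3 (−1.02, SE 0.25) and PFDN4 (−0.51, SE 0.16) lower. These are 3 of the 10 names with an adjusted p, beside 6.27% of all names. The median over 14 names, low ones such as ARL2 (deposited mean 0.78) among them, was 0.22. The 5 tested transcripts had a median of −0.14 in edgeR.

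In G. lacustris the authors' deposited table has, of the 13 folding names with an adjusted p, 6 higher and 4 lower, beside 25.1% of all names higher and 33.8% lower. With TMM scaling edgeR called 1 higher and 2 lower of 10 tested transcripts, beside 9.7% and 30.1% of all transcripts. ARL2, for example, is called at 1.03 in the authors' deposited table, and its transcript with the lowest p had 0.37 (SE 0.24, edgeR adjusted p = 0.25). The chaperonin subunit CCT5 rose from 168 ± 32.5 to 511 ± 74.3 CPM (1.61, SE 0.22, edgeR adjusted p = 0.000397). CCT2 fell from 26 ± 12.4 to 4.13 ± 1.09 CPM (−2.65, SE 0.37, edgeR adjusted p = 0.000447), and PFDN2 fell from 8.41 ± 5.85 to 1.41 ± 0.517 CPM (−2.56, SE 0.51, edgeR adjusted p = 0.00203). The dimer cofactor TBCA went from 89.2 ± 23.8 to 140.6 ± 33.4 CPM (0.66, SE 0.26, edgeR adjusted p = 0.0703).

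Counts of other microtubule proteins of G. lacustris stand beside 33.8% of all names lower, 25.1% higher and 58.9% in either direction in the authors' deposited table, and in each of the 3 lists here the share called in either direction was below the last of these. Of 37 motor names the authors' deposited table has 4 higher and 13 lower. It has 6 of 15 proteins that bind or sever microtubules and 6 of 14 enzymes that modify tubulin lower, and 0 of either list higher, as the authors' deposited table counts them. The median fold changes of these lists in the authors' deposited table were −0.91, −2.04 and −2.31, beside −0.41 over all names. These lists include names with very few reads, such as KIF26B, ckap5 and VASH1, with deposited means of 0.659, 0.505 and 0.515. edgeR called 5 of 9, 2 of 4 and 1 of 3 of their tested transcripts, all lower, beside 30.1% of all transcripts called lower, and the 3 tested transcripts of modifying enzymes had a median of 0.23. Among them the end-binding protein MAPRE2 fell from 6.19 ± 3.5 to 1.14 ± 0.76 CPM (−2.41, SE 0.58, edgeR adjusted p = 0.00612). The microtubule-associated MAP1B fell from 6.84 ± 3.51 to 0.965 ± 0.487 CPM (−2.80, SE 0.54, edgeR adjusted p = 0.00172). The carboxypeptidase AGBL2, which trims tubulin tails, fell from 6.08 ± 4.08 to 0.192 ± 0.383 CPM (−4.89, SE 1.01, edgeR adjusted p = 0.00225), and the kinesin KIF28P from 2.92 ± 0.811 to 0.109 ± 0.0101 CPM (−4.58, SE 0.48, adjusted p = 0.000209). The dynein light chain DYNLL2 was lower in the authors' deposited table, at −2.68 (SE 0.35, adjusted p = 1.9e-12).

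In the Baikal species 1 of these names was called in the authors' deposited tables, KIF17 of E. verrucosus at −2.05 (SE 0.57, adjusted p = 0.0116). KIF17 was also called lower in the authors' deposited table of G. lacustris, at −6.79 (SE 1.11, adjusted p = 1.61e-08). The motor, binding or severing, and modifying lists had 16, 8 and 6 names with an adjusted p in E. verrucosus, where 4.69% of all names were called. In E. cyaneus they had 14, 3 and 2, where 6.27% of all names were called. The gamma ring list matched 6 names in G. lacustris, 5 in E. cyaneus and 3 in E. verrucosus. These counts include GRIP1, GRIP2 and gripap1 of G. lacustris, GRIPAP1 of E. cyaneus and GRIP2 of E. verrucosus, whose symbols matched but which are not ring proteins. Its called names, in the authors' deposited table of G. lacustris, were NEDD1, which docks the ring, at 3.16 (SE 0.87, adjusted p = 0.000844) and gripap1 at −2.51 (SE 0.41), which is known from vesicle recycling. No delta or epsilon tubulin was among the names.

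The transcripts most like betaTub56D were sought over 8 libraries. The rule asked for a species with betaTub56D on 1 transcript, which none offered, so the 917-base transcript of E. cyaneus was used instead, a choice made after its values were seen. Over 1162 named transcripts the highest Pearson correlations of log2 CPM were those of PIGX (0.99), TDO2 (0.96) and ASB1 (0.96). These points share the libraries and their temperature groups. Ranking by likeness to a transcript that fell in the cold favours others that fell. The falls given next follow from that ranking and are no separate result. TDO2, the first enzyme of tryptophan breakdown, fell from between 224 and 303 CPM at 12 °C to between 67.4 and 104 CPM at 1.5 °C (−1.63, SE 0.22, edgeR adjusted p = 0.0114). PIGX, at 1.2 to 5.14 CPM, fell as well (−1.60, SE 0.27, edgeR adjusted p = 0.0369), and ASB1 had a fold change of −0.79 (SE 0.19, edgeR adjusted p = 0.0987).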

How the data were processed

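Estimated counts from Salmon 1.1.0, 1 per transcript and library and without normalisation, are what the authors deposited, according to the submitters' processing notes and the file headers. TPM, also deposited by the authors, was used for levels per length and in no test. Per the series' design text, each species was assembled with Trinity, made less redundant with cd-hit-est, filtered with TransRate and limited to metazoan matches. The authors' deposited table of each species, made with DESeq2 1.26.0 per the submitters' processing notes, lists for each gene symbol, per the file headers, the signal averaged over 8 libraries as a mean normalised count, the log2 fold change with SE, the Wald score, and the p-value before and after adjustment. How the counts of a name were summed is not given in the sources used here.

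Counts were rounded to whole numbers. Names were joined to transcripts by the deposited mean, recomputed as the mean of rounded counts over size factor and relative length, within a relative tolerance of 1e-12. Means shifted by a relative 1e-05 gave 0 matches. This joined 2293, 2430 and 2861 names to 1 transcript and 381, 238 and 346 to a summed set (E. verrucosus, E. cyaneus, G. lacustris). The size factors behind the means were solved in the same step. Joined transcripts hold 4.54 to 9.98% of each library's counts. For tubulin names still without a match, further sums of transcripts were tried, narrowed beforehand by the deposited fold change.

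1.5 °C was compared with 12 °C within each species by edgeR 4.0.16 (R 4.3.3; quasi-likelihood test, TMM, filterByExpr at a minimum count of 10 and total of 15), with p-values adjusted by Benjamini-Hochberg across every tested transcript. An interaction on names joined in both species compared the changes. The fit was tested on simulated counts. Alternatives were RLE factors, DESeq2 1.42.0, no filter, a replicate block, counts summed per name, each replicate left out and, added after seeing the data, the authors' size factors. Replicate numbers do not pair libraries by the labels. Columns not used: 0. Members, lists and markers were chosen with earlier results of these data known. Named are called tubulins, betaTub56D, the most abundant of each kind, some of the called list members and the 3 transcripts most like betaTub56D. Other list members, many called ones of G. lacustris among them, are only counted. No tubulin sequence is shown, since no sequence file was used here.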

Additional observations from a re-analysis of the deposited data

Results flagged for a closer look

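In 3 of 27 groups of 4 libraries with at least 20 reads, 1 library stood apart from the other 3 by Dixon's test, and chance alone flags about 1 group in 20. TUBA3C of E. verrucosus read 272 CPM in library 1 at 12 °C, with the other 3 between 97.2 and 120 CPM. TUBA1C of G. lacustris read 8.07 CPM in library 1 at 12 °C, with the others between 2.44 and 3.17 CPM. tubb4b of E. cyaneus read 1.09 CPM in library 3 at 1.5 °C, with the others between 0.488 and 0.553 CPM.

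The change between temperatures differed between E. cyaneus and G. lacustris by 2.29 for TUBA1C (SE 0.58, edgeR interaction adjusted p = 0.0027) and by 2.84 for tubb4b (SE 0.57, edgeR interaction adjusted p = 0.000455) on the log2 scale. A shared name does not show that the gene is the same in both species.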

How the results depend on the processing

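Replicate numbers come from the labels, and libraries with the same number did not deviate together, with correlations from −0.21 to 0.11. A replicate block called 9991 transcripts of G. lacustris against 10824 without it, 44 of E. cyaneus against 130, and 170 of E. verrucosus against 805. It called 0 tubulin transcripts of E. cyaneus in place of 1, with betaTub56D at −1.59 (adjusted p = 0.0723). Under the block the difference of TUBA1C between the Baikal species was 0.019 in place of −0.14. DESeq2 called 16721 transcripts of G. lacustris, 917 of E. cyaneus and 2280 of E. verrucosus, and 1 tubulin transcript (TUBB4A) in E. verrucosus in place of 0. The authors' size factors, an alternative chosen after seeing the data, gave 17609 calls for G. lacustris and 197 for E. cyaneus, and no filter gave 17735 for G. lacustris. Leaving out 1 library gave 10166 to 12317 calls for G. lacustris with 3 to 4 tubulins, 41 to 197 for E. cyaneus with 0 to 1, and 670 to 912 for E. verrucosus with 0 to 1. Those fits put TUBA1C, TUBA3C and TUBA4A of E. verrucosus, none of them called, between −0.85 and 0.57, −0.43 and 0.18, and −0.0052 and 0.67. They put the difference of TUBA1C between the Baikal species between −0.69 and 0.79 and that of TUBA3C between E. verrucosus and G. lacustris between −0.90 and 0.10. The sum of TUBA1C of E. cyaneus was −0.30 where its 839-base transcript was 0.13. The cause of these shifts was not tested. edgeR's filter on low counts left 4 joined tubulin transcripts of E. verrucosus, 6 of E. cyaneus and 3 of G. lacustris untested at this depth.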
